A study of Danio rerio with 6 samples.

Results

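The unconventional myosins are the motor proteins of the myosin superfamily other than the filament-forming myosins of muscle and of the contractile cell cortex. The genes described here were all those whose symbol, ignoring case, is myo followed directly by a digit. This rule found 36 of the 35117 Ensembl gene IDs counted, spread over 11 myosin classes, and it used no measured value. Each Ensembl ID was kept as its own gene, so MYO6 names ENSDARG00000042141 and ENSDARG00000044016.

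Expression was measured by RNA sequencing in wild-type EK zebrafish, taken as larvae of 6 days. Cells of both groups were sorted for a cldn15la-GFP reporter, so the larvae they came from carried that reporter. By gavage, 24 hours before dissociation and sorting, every larva in both groups was fed Alexa Fluor 568 dextran, a sugar chain carrying a fluorescent dye. Intestinal epithelial cells (IEC, 3 libraries) were sorted for cldn15la-GFP, a reporter of the intestinal epithelium. Lysosome rich enterocytes (LRE, 3 libraries) were sorted for GFP together with the dextran; they are enterocytes that take up luminal protein and digest it in a large lysosome. The labels do not say whether cells with dextran were kept out of the IEC gate, nor whether each library had larvae of its own. P-values therefore cover library-to-library spread alone, and that spread may be technical. These are bulk libraries, in which fewer cells of a type and less RNA per cell cannot be told apart.

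Unconventional myosins walk on actin filaments, which in an enterocyte form the core of each microvillus and the web beneath. Most move towards the fast-growing filament end, at the microvillus tip, whereas class VI myosin moves the other way, towards the base. In absorptive epithelia class VI myosin is known for carrying receptors and endocytic vesicles inward from the brush border, with Dab2 as an adaptor between the motor and its cargo. Class V motors carry recycling vesicles with Rab11, class VII motors hold the links between microvilli, and class I motors tie membranes to actin.

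Total counts lay between 39590129 and 53250871. LRE 1 stood apart from the other libraries, with 19396 genes detected against 22974 to 25610, and with 21.7% of its counts from mitochondrial genes against 4.18 to 11.4%. The lysosome rich enterocyte markers cubn, amn, dab2, lrp2b, ctsl.1 and lgmn matched 7 genes, of which 6 were called higher in LRE. Their summed level was 410.2 to 579 CPM in IEC and 15470.2 to 33606.8 CPM in LRE. CPM here are a library's counts divided by its total and its TMM factor, a correction for a few abundant genes taking up a library, and written per 1e6. Across all genes 20979 passed a filter on low counts, and calls are at a Benjamini-Hochberg adjusted p under 0.05 over all of them in edgeR's quasi-likelihood test. By that rule 483 genes (2.3%) were called higher and 191 (0.91%) lower in LRE.

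The MYO6 genes moved in opposite directions. ENSDARG00000044016 rose in LRE and ENSDARG00000042141 fell, each by more than 4-fold, and they were the only family members called. Class VI myosin is the endocytic motor described above, and zebrafish carry a pair of genes for it, myo6a and myo6b. Background from zebrafish genetics ties myo6b to sensory hair cells. The symbol table gives both IDs the name MYO6, so which ID is which paralog is not settled here.

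ENSDARG00000044016 was at 48.1, 53.4 and 55.7 CPM in IEC 1, 2 and 3, and at 271, 220.2 and 282 CPM in LRE 1, 2 and 3. All LRE libraries lay above all IEC libraries, and the lowest LRE value was far above the highest IEC value. The mean rose from 52.4 ± 3.86 to 258 ± 32.9 CPM (SD over 3 libraries a group), a log2 fold change of 2.30 ± 0.26 (SE, adjusted p = 0.00424, edgeR). The call held without any 1 of the 6 libraries (log2 fold change 2.19 to 2.40, adjusted p 0.0134 to 0.0347). With libraries scaled by their totals alone the log2 fold change was 1.87 and the adjusted p = 0.0520; that scaling moved the median of all genes from -0.06 to -0.46.

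ENSDARG00000042141 was at 96.8, 157 and 134 CPM in IEC 1, 2 and 3, and at 41.6, 25.3 and 19.0 CPM in LRE 1, 2 and 3. No LRE library reached the lowest IEC library, and LRE 1 was the highest of its group. The mean fell from 129 ± 30.5 to 28.6 ± 11.7 CPM (n = 3 each), a log2 fold change of -2.18 ± 0.36 (SE, adjusted p = 0.0190, edgeR). Its call ended without IEC 2 (adjusted p = 0.0601), IEC 3 (0.0677), LRE 2 (0.0758) or LRE 3 (0.0682), at log2 fold changes of -1.99 to -2.19. Without LRE 1, the library that stood apart, the fall was larger (-2.55, adjusted p = 0.0184).

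The split of MYO6 counts between the IDs is read within a library and so does not depend on how libraries were scaled. ENSDARG00000044016 held 33.2% of MYO6 counts in IEC 1 (95% Wilson interval 31.9 to 34.6%), 25.4% in IEC 2 (24.7 to 26.1%) and 29.3% in IEC 3 (28.5 to 30.1%). It held 86.7% in LRE 1 (86.0 to 87.4%), 89.7% in LRE 2 (89.2 to 90.2%) and 93.7% in LRE 3 (93.3 to 94.1%). The groups are more than 50 percentage points apart, while libraries of a group differ by less than 10. These intervals cover counting error only. Transcript lengths were not used here, so the shares compare libraries and do not say which gene has more mRNA molecules.

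**Figure D1:**
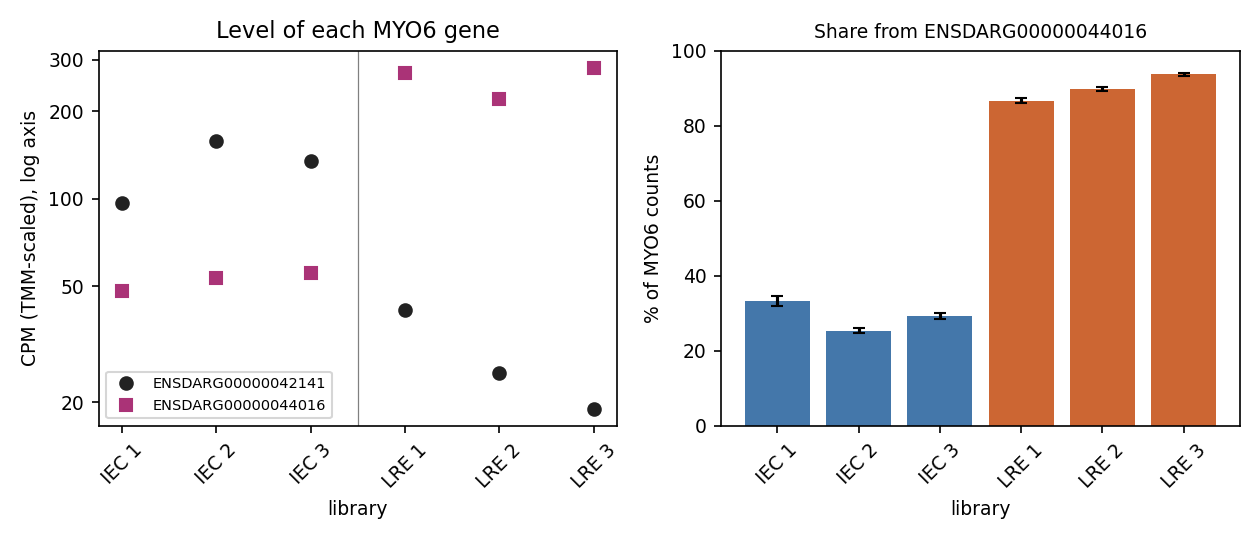
The left panel plots the level of each MYO6 gene in CPM on a log axis for the 6 libraries, and the right panel plots the percent of MYO6 counts from ENSDARG00000044016, with 95% Wilson intervals as bars. ENSDARG00000044016 lies between 48.1 and 55.7 CPM in IEC and between 220.2 and 282 in LRE, ENSDARG00000042141 goes the other way, and the share goes from at most 33.2% in IEC to at least 86.7% in LRE.

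Few pairs of IDs with the same symbol had both IDs called in these data, so calls in either arrangement, opposite or alike, were rare. Of 1335 symbols carried by exactly 2 tested IDs, 4 (0.3%) had 1 ID called higher and the other lower, and 7 had both called in the same direction. The other 3 symbols with opposite calls were MEP1B, SPON1 and LHFPL2, picked out after their values were seen. By the size of the shift in log2 odds between the IDs, MYO6 (-4.52 for ENSDARG00000042141 against ENSDARG00000044016, LRE minus IEC) ranked 39 of the 1335, whose median size was 0.93. Reads that match both copies may have been dropped or split in counting, so values of any such pair are uncertain to that extent.

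Summed over both IDs, MYO6 was at 145, 211 and 190 CPM in IEC 1, 2 and 3 and at 313, 245 and 301 CPM in LRE 1, 2 and 3. The sums did not overlap between the groups after TMM scaling but did by plain totals. They differed by less than either gene alone, with a log2 ratio of the mean sums of 0.65 after TMM scaling. That ratio was 0.20 with scaling by totals alone, so the size of the change in total MYO6 rested on the scaling while the shift between the IDs did not. MYO6 took 15.3 to 16.5% of the family's counts in IEC and 19.5 to 26.8% in LRE.

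The gene of the adaptor that links class VI myosin to endocytic cargo was higher in LRE, as was ENSDARG00000044016. This gene, dab2, is also among the lysosome rich enterocyte markers above, so its rise was already counted there. The gene dab2 (ENSDARG00000031761) was at 24.9, 17.1 and 19.0 CPM in IEC 1, 2 and 3 and at 1260, 631 and 1035 CPM in LRE 1, 2 and 3 (log2 fold change 5.58 ± 0.43, adjusted p = 0.00176, edgeR). A second ID with that symbol, ENSDARG00000053091, had means of 13.4 ± 7.11 (IEC) and 12.7 ± 4.30 CPM (LRE) and was not called (adjusted p = 0.952, edgeR). In the list of class VI cargo adaptors, dab2 was the only 1 of 18 tested genes called, against 2.3% of all genes called higher and 0.91% lower. The list's median log2 fold change was 0.12, against -0.06 over all genes. Its other members include the autophagy receptors SQSTM1, OPTN and calcoco2. SQSTM1, next to dab2 in mean CPM, had a log2 fold change of 0.11 ± 0.42. DESeq2 called 2 of the 18 lower, against 3.9% of all genes. Of the 25 listed symbols 10 matched no gene.

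The family's summed level differed between the groups by less than the spread between libraries. It was 905, 1377 and 1153 CPM in IEC 1, 2 and 3 and 1165, 1258 and 1131 CPM in LRE 1, 2 and 3, with LRE inside the range of IEC. By plain totals it took 0.0729 to 0.181% of the IEC libraries and 0.0806 to 0.119% of the LRE libraries. The filter on low counts passed 32 of the 36 genes. The 4 left out, MYO1H, myo5ab, myo10l1 and MYO15A, had at most 42 counts in any library. No member was at 0 in all libraries.

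Of the 32 genes tested, 1 was called higher (3.12%, against 2.3% of all genes) and 1 lower (3.12%, against 0.91%), namely the MYO6 pair, and 30 were not called. The unadjusted p was under 0.05 for 9 of the 32 (28.1%, against 17% of all genes). Of these 3 were higher (9.38%, against 9.79%) and 6 lower (18.8%, against 7.19%). The log2 fold change was above 0 for 18 of the 32 (56.2%, against 47%). All LRE libraries lay above all IEC libraries for 4 members (12.5%, against 13%), and below them for 7 (21.9%, against 13.8%). The median log2 fold change of the members was 0.12, against -0.06 over all genes, and 23 of the 32 were within 1 of 0 (71.9%, against 67.6% of all genes). By calls, unadjusted p and overlap, the shares for higher members lay near those of all genes. By the same measures the shares for lower members, resting on 1 to 7 genes, were above them. The median and the share of members with a log2 fold change above 0 went the other way, both above those of all genes.

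With the replicate number as a block, 2 members were lower (6.25%, against 1.75% of all genes, 367) and 1 higher (3.12%, against 3.76%, 789). Both MYO6 genes kept their calls. DESeq2 called 2 members higher (6.25%, against 5.93%) and 4 lower (12.5%, against 3.9%). Beyond the MYO6 pair these included myo15b, MYO3B and MYO9B. By limma voom 1 member was higher (3.12%, against 2.89%) and 2 were lower (6.25%, against 1.38%), the second being MYO3B. With library totals alone 1 was lower (3.12%, against 0.868%) and 0 higher (against 0.653%). Leaving out 1 library gave 0 to 2 lower members and 1 higher member in each of the 6 fits.

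**Figure D2:**
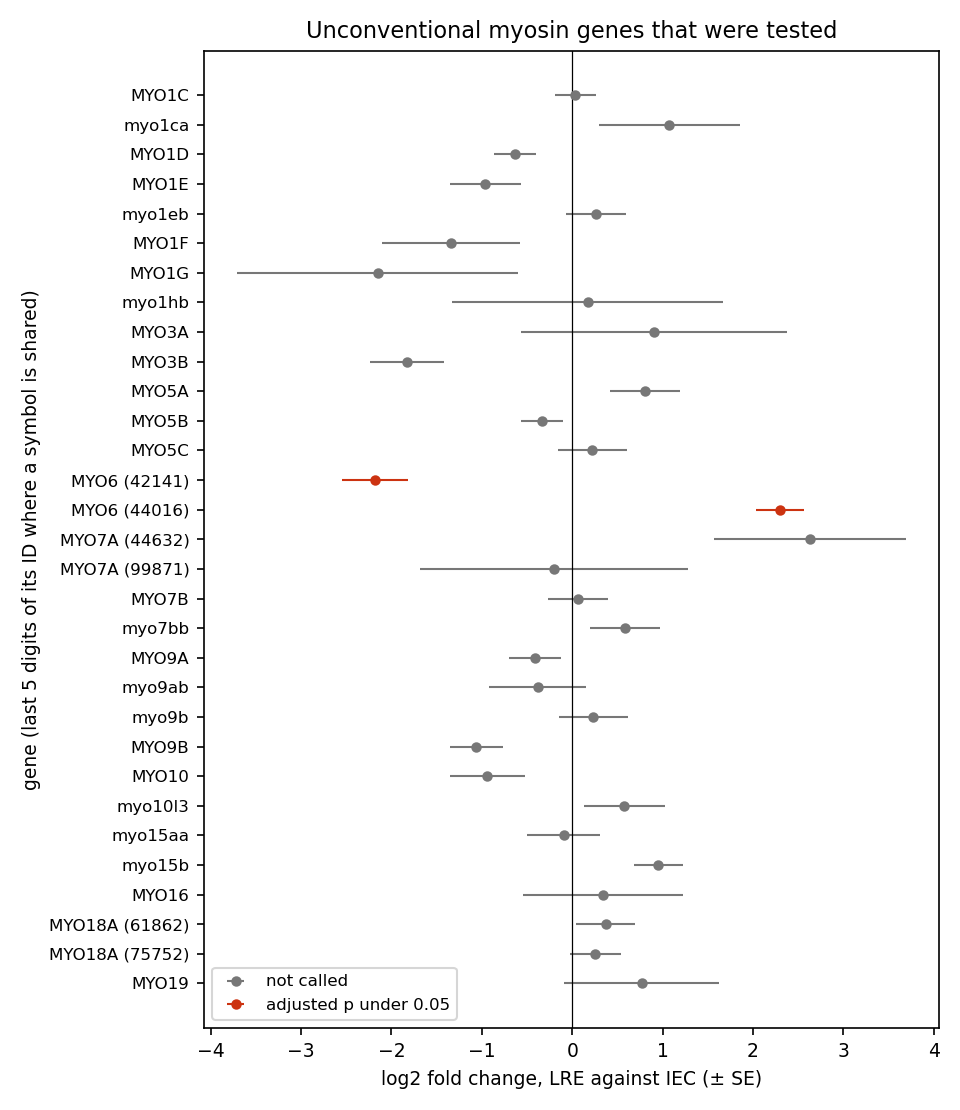
Log2 fold change (LRE against IEC, with its SE as a bar) for 31 of the 32 tested genes in order of class; red marks an adjusted p under 0.05. The 2 called genes are the MYO6 pair at -2.18 and 2.30, and the others, in grey, lie between -2.15 and 2.63 with wider bars for the low-count genes.

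Class VII includes a brush border motor. MYO7B, which in mammals sits at microvillus tips as part of the complex of protocadherin links, was at 120, 210 and 141 CPM in IEC 1, 2 and 3 and at 165, 207 and 120 CPM in LRE 1, 2 and 3. These ranges almost coincide (log2 fold change 0.06 ± 0.33, adjusted p = 0.949, edgeR). Its like-named partner myo7bb was at 88.4, 168 and 75.6 CPM in IEC and at 193, 197 and 108 CPM in LRE. LRE 3 lay within the IEC range and the difference was not called (0.59 ± 0.39, adjusted p = 0.507, edgeR). Within a library MYO7B took 55.6 to 65.0% of the counts of this pair in IEC and 46.1 to 52.5% in LRE, so the groups did not overlap in the split although neither gene was called.

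The MYO7A pair, which encodes the class VII motor of hair cells and photoreceptors, was near the filter. ENSDARG00000044632 had 11, 40 and 15 counts in the IEC libraries and 16, 78 and 239 in the LRE libraries, most of them in LRE 3 (log2 fold change 2.63 ± 1.06, adjusted p = 0.249, edgeR). ENSDARG00000099871 had 9, 135 and 36 counts in IEC and 0, 58 and 60 in LRE. MYO3A, a class III motor of the same sensory cells, had 9, 85 and 131 counts in IEC and 0, 144 and 187 in LRE. Neither of these last genes was called, at log2 fold changes of -0.20 ± 1.48 (ENSDARG00000099871) and 0.91 ± 1.47 (MYO3A). The summed markers of neurons and sensory cells were higher in LRE, though none of the 8 tested was called. Their 9 matched genes summed to 230.0 to 542 CPM in IEC and 834 to 3729 CPM in LRE, and none was at 0 in a whole group. For 4 of the 9, LRE was higher without overlap, against 13% of all genes. By plain totals only PHOX2A of these 4 stayed apart. The sum was highest in LRE 3. The part of such cells in the values of MYO7A and MYO3A was not tested.

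Class III also held MYO3B, the member nearest to the threshold from outside. It was at 15.3, 37.3 and 28.2 CPM in IEC 1, 2 and 3 and at 8.37, 5.62 and 8.83 CPM in LRE 1, 2 and 3. Every LRE library was below every IEC library, also by plain totals. The log2 fold change was -1.83 ± 0.41 (adjusted p = 0.0518, edgeR). It passed in 6 of the 15 other settings, among them without IEC 1 (-2.11, adjusted p = 0.0408) and in DESeq2 (adjusted p = 0.00147), and did not pass with the replicate block (adjusted p = 0.0677).

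Class I, with 10 genes, was the largest class, and its share of family counts was lower in LRE. It held 32.3, 30.8 and 35.9% of them in IEC 1, 2 and 3 and 18.0, 20.7 and 24.5% in LRE 1, 2 and 3. These are parts of the same total, in which MYO6 ENSDARG00000044016 went from 4.68 ± 0.73% in IEC to 21.9 ± 3.89% in LRE. In CPM the class summed to 292, 424 and 413 in IEC and to 210, 261 and 277 in LRE. The fall was not shared by all its genes, as MYO1C took 5.33 ± 1.54% in IEC and 5.07 ± 0.04% in LRE. None of its 9 tested genes was called, 4 had a log2 fold change above 0 and 5 below, and the median was -0.63. MYO1D, which is found in brush borders of mammals and sets left-right asymmetry in zebrafish, was at 69.2 ± 6.19 CPM in IEC and 44.6 ± 3.04 in LRE (n = 3 each). Its groups did not overlap with either scaling (-0.63 ± 0.23, adjusted p = 0.207, edgeR).

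MYO1C, a motor of plasma membrane delivery, had the log2 fold change nearest to 0 of the 32 tested genes. It was at 63.6, 55.7 and 56.8 CPM in IEC and at 58.9, 64.4 and 57.0 CPM in LRE. The log2 fold change was 0.03 ± 0.23 (adjusted p = 0.960, edgeR), or -0.35 with scaling by totals alone, where all genes had a median of -0.46, so its sign changed with the scaling. The class I genes with a long tail, a form that in mammals and yeast works at endocytic sites, are MYO1E, myo1eb and MYO1F. Within the first pair myo1eb took 51.4 to 53.5% of counts in IEC and 61.9 to 85.6% in LRE. MYO1E had a log2 fold change of -0.96 ± 0.40 and myo1eb one of 0.26 ± 0.33, and neither was called.

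MYO1F and MYO1G, which in mammals are motors of blood cells, were at 10.4 ± 8.56 and 3.53 ± 4.29 CPM in IEC and at 4.11 ± 2.44 and 0.786 ± 1.25 in LRE (n = 3 each). IEC 2 was the highest library for both, at 19.9 and 8.47 CPM. The sum of the 7 matched leukocyte markers was likewise lower in LRE. It was 169 to 337 CPM in IEC, highest in IEC 2, and 48.0 to 93.0 CPM in LRE, with none at 0 in a whole group. Within IEC, CORO1A, LCP1, ptprc, cd74a and cd74b were highest in IEC 2, lyz in IEC 1 and RAG1 in IEC 3. Of the 7, cd74a alone had a log2 fold change above 0 (0.87). In LRE 2 of 7 were lower without overlap, against 13.8% of all genes. By plain totals only lyz stayed apart, and none of the 7 markers was called. Their part in the MYO1F and MYO1G values was not tested. The class I genes myo1ca and myo1hb stayed below 6 CPM in all libraries.

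**Figure D3:**
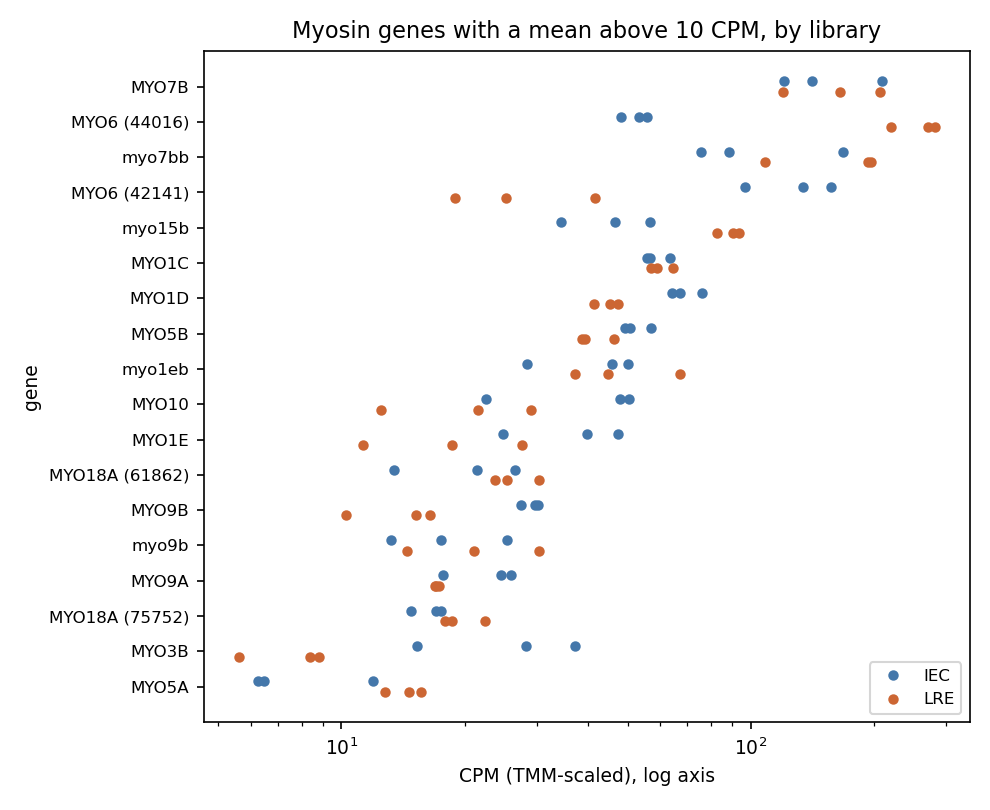
Level of 18 of the 19 genes with a mean above 10 CPM, as CPM on a log axis, 1 point per library with IEC in blue and LRE in orange; genes are ordered by mean level. The MYO6 pair separates in opposite directions, while for MYO7B and MYO1C the colours mix. Levels of different genes are not comparable here, since longer transcripts gather more counts.

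None of the class V motors, which carry vesicles of the recycling endosome, was called. MYO5B, the motor mutated in human microvillus inclusion disease, was at 49.4, 50.7 and 57.0 CPM in IEC and at 38.7, 46.4 and 39.3 CPM in LRE. The groups did not overlap after TMM scaling but did by plain totals (-0.34 ± 0.24, adjusted p = 0.536, edgeR). MYO5A, known for carrying pigment granules, was at 8.22 ± 3.22 CPM in IEC and 14.3 ± 1.45 in LRE, and MYO5C at 9.16 ± 2.17 and 10.7 ± 2.53 (n = 3 each); neither was called. Among 21 tested class V adaptors and partners 1 was called higher, against 2.3% of all genes, and 0 lower, against 0.91%. It was RAB11A, the GTPase that binds class V motors on recycling endosomes, whose mean was 102 ± 23.0 CPM in IEC against 270 ± 56.8 CPM in LRE (1.40 ± 0.31, adjusted p = 0.0490, edgeR). That call ended without any 1 library (adjusted p 0.0836 to 0.212) and with RLE, upper-quartile or plain scaling. RAB11A was called in 5 of the 15 other settings, among them the replicate block (adjusted p = 0.0237), limma voom (0.0248) and DESeq2 (0.00105). The list's median was 0.06, and with the replicate block 3 of its members were higher, against 3.76% of all genes in that fit.

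Class XV held myo15b, whose values were higher in LRE without a call. It was at 34.4, 46.5 and 56.6 CPM in IEC 1, 2 and 3 and at 82.9, 90.2 and 93.3 CPM in LRE 1, 2 and 3. All LRE libraries were above all IEC libraries after TMM scaling and not by plain totals (0.95 ± 0.27, adjusted p = 0.106, edgeR). The adjusted p was 0.0537 with the replicate block and 0.0301 in DESeq2. It took 4.03 ± 0.79% of family counts in IEC and 7.51 ± 0.64% in LRE (n = 3 each). The gene myo15aa, named after the MYO15A motor that builds stereocilia tips in mammals, was at 9.84 ± 1.34 and 9.22 ± 3.10 CPM.

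Classes IX and X each held a gene that was lower in value beside a like-named gene that was not. Class IX motors carry a domain that switches off small GTPases of the actin cytoskeleton. MYO9B (ENSDARG00000078313) was at 27.4, 29.8 and 30.2 CPM in IEC and at 10.2, 16.4 and 15.2 CPM in LRE, with no overlap by either scaling (-1.06 ± 0.30, adjusted p = 0.104, edgeR). Its partner myo9b (ENSDARG00000077410) was at 18.7 ± 6.22 CPM in IEC and 22.0 ± 7.97 in LRE (n = 3 each). It took 30.4 to 46.1% of the counts of this pair in IEC and 58.0 to 64.9% in LRE. MYO10, the filopodial motor, was at 40.3 ± 15.4 and 21.0 ± 8.30 CPM (-0.94 ± 0.42, adjusted p = 0.302, edgeR), while myo10l3 had a log2 fold change of 0.58 ± 0.45. MYO10 took 79.6 to 87.8% of the counts of those 2 genes in IEC and 55.1 to 67.1% in LRE.

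In the family, 9 pairs of tested genes shared a class number in their symbols, and a class letter where there was one. In 6 of them the split of counts did not overlap between IEC and LRE (66.7%). For comparison, 21.8% of the 1335 pairs of IDs with the same symbol had splits that did not overlap. In the family only the pairs of MYO6, MYO7A, MYO9B and MYO18A share a symbol, ignoring case. The 2 shares therefore compare pairs defined by different rules. The 6 were MYO6, MYO7A, MYO7B, MYO9B, MYO10 and MYO1E with their partners, and the other 3 were MYO1C, MYO9A and MYO18A. The mean split moved by -60.7 percentage points for MYO6, the next being 43.3 for MYO7A, which rests on 16 counts in LRE 1. Symbols alone define these pairs, and their depth was not matched to that of the 1335.

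**Figure D4:**
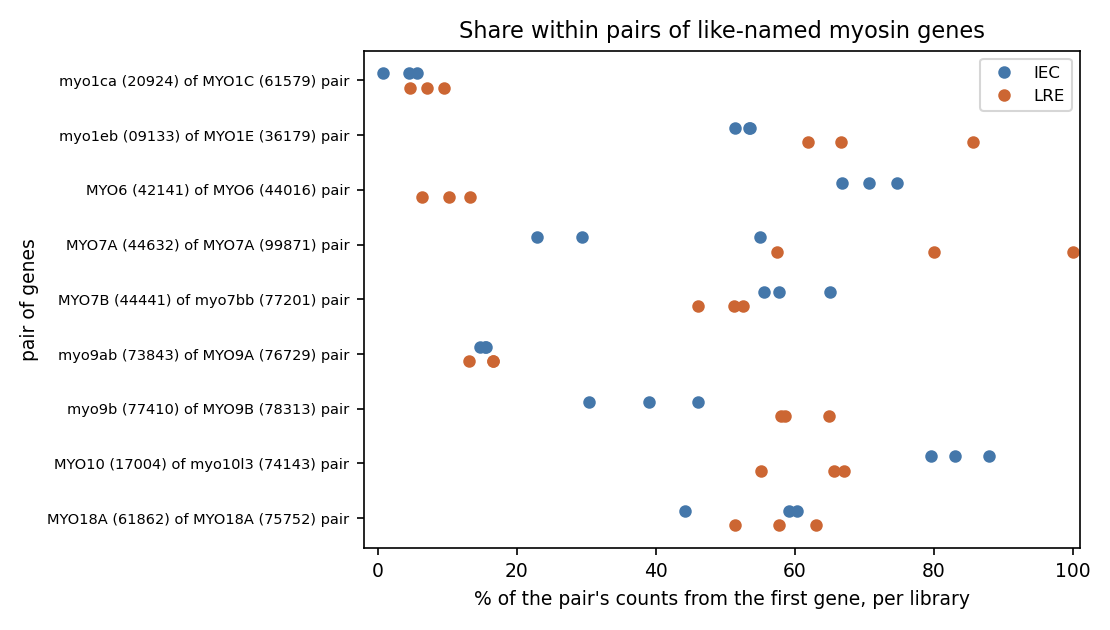
Percent of each pair's counts that came from the first-named gene, 1 point per library, IEC in blue and LRE in orange; numbers in brackets are the last digits of each ID. The MYO6 pair goes from 66.8 to 74.6% in IEC to 6.31 to 13.3% in LRE, a wider gap than in any other pair shown, and the pairs of MYO1C, MYO9A and MYO18A overlap.

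Classes XVI, XVIII and XIX and the MYO9A pair held no called gene. MYO18A, a PDZ-domain myosin linked to the Golgi in mammals, had 2 IDs. ENSDARG00000061862 was at 20.5 ± 6.63 CPM in IEC and 26.5 ± 3.50 in LRE, and ENSDARG00000075752 at 16.4 ± 1.44 and 19.6 ± 2.42 (n = 3 each). MYO19, the motor of mitochondria, was at 1.55 ± 0.81 and 2.63 ± 1.64 CPM, and MYO16 at 2.43 ± 0.93 and 3.08 ± 2.68. MYO9A was at 22.7 ± 4.37 CPM in IEC and 17.1 ± 0.21 in LRE, and myo9ab at 4.08 ± 0.79 and 3.13 ± 0.50.

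**Figure D5:**
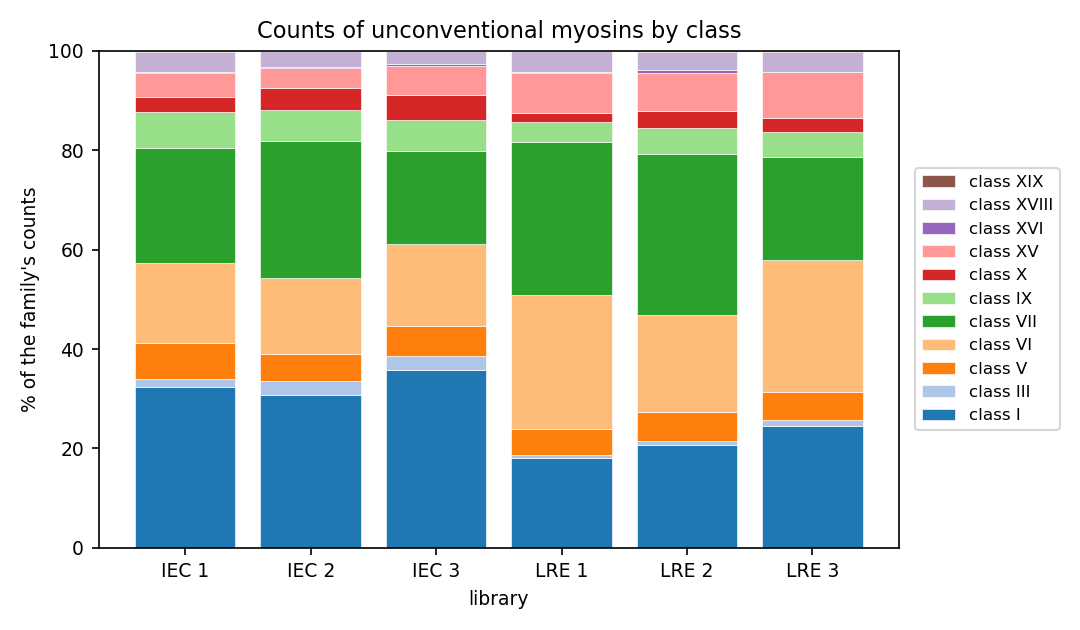
Stacked bars give the percent of all counts of the 36 genes that fell to each myosin class, 1 bar per library. Class I takes 30.8 to 35.9% in IEC and 18.0 to 24.5% in LRE, while class VI takes 15.3 to 16.5% in IEC and 19.5 to 26.8% in LRE. The shares are parts of the same total, so a rise in one class lowers the shares of others.

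Of 25 tested genes of the microvillus core and its links, 3 were called higher, against 2.3% of all genes, and 0 lower, against 0.91%, with a median of 0.47 against -0.06 over all genes. The adhesion gene tmigd1 went from 17.2 ± 6.49 to 470 ± 45.7 CPM (4.77 ± 0.40, adjusted p = 0.00201, edgeR). EPS8L2, of a family that caps actin, went from 61.5 ± 4.56 to 165 ± 0.32 CPM (1.42 ± 0.24, adjusted p = 0.0195, edgeR). PLS1, the bundling protein fimbrin, went from 63.6 ± 18.9 to 218 ± 55.4 CPM (1.78 ± 0.34, adjusted p = 0.0307, edgeR). The call of PLS1 ended without any 1 library (adjusted p 0.0505 to 0.121), and that of EPS8L2 without IEC 2, IEC 3, LRE 2 or LRE 3 (0.0609 to 0.126). With totals alone neither was called (0.244 and 0.207). VIL1, or villin, with the highest mean CPM of the list, was at 1153 ± 272 CPM in IEC and 721 ± 88.4 in LRE and was not called (adjusted p = 0.357, edgeR).

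None of the 11 tested calmodulin and light chain genes, which bind the myosin neck, was called (median -0.14). The highest in CPM, calm3b, was at 875 ± 83.2 CPM in IEC and 886 ± 43.6 in LRE. No call came from the 2 tested Unc45 chaperones, which fold myosin heads, or from 6 conventional heavy chains of nonmuscle and smooth muscle myosin (medians 0.17 and 0.13). Of these heavy chains MYH9 (ENSDARG00000063295) was at 71.8 ± 26.6 CPM in IEC and 116 ± 32.8 in LRE. MYH11 (ENSDARG00000100972), a smooth muscle heavy chain named after its values were seen, was at 9.13, 6.69 and 21.5 CPM in IEC and at 0, 0.534 and 1.04 CPM in LRE, without overlap and without a call (adjusted p = 0.0766, edgeR). UNC45A was at 7.98 ± 2.74 and 6.25 ± 2.62 CPM (n = 3 each). At an unadjusted p under 0.05 there were 2 of 11 light chain or calmodulin genes, 0 of 2 chaperones and 2 of 6 heavy chains, against 17% of all genes. DESeq2 called 1, 0 and 1 gene of these lists, all lower, against 3.9% of all genes. Among the light chain and calmodulin genes 1 was also lower with totals alone and with the replicate block, against 0.868% and 1.75% of all genes. Among the heavy chains 1 was lower with no filter and without LRE 1.

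Summed markers of some other cell types differed between the groups as well. Called lower were 2 of 8 enteroendocrine, 1 of 4 best4, 1 of 7 anterior enterocyte and 0 of 6 goblet markers, against 0.91% of all genes. The anterior enterocyte sums overlapped, at 1879 to 3091 CPM in IEC and 1556 to 2844 in LRE. Of these 7 markers 3 were lower without overlap, and their median log2 fold change was -0.71. Called higher were 2 of 9 epidermal and 0 of 6 fibroblast markers, against 2.3% of all genes. Enteroendocrine markers summed to 1844 to 10280 CPM in IEC and 240 to 1405 CPM in LRE (6 of 8 matched genes without overlap). Markers of best4 cells summed to 1312 to 3876 CPM in IEC and 380 to 661 in LRE (2 of 4). Most of that sum was ca2 (mean 2062 of 2335 CPM in IEC), and OTOP2 alone went the other way (log2 fold change 0.25). Goblet cell markers summed to 1023 to 2307 CPM in IEC and 226 to 851 in LRE (2 of 6). Most of that sum was AGR2 (mean 1355 of 1463 CPM in IEC). The log2 fold changes of the 6 were -1.31 (AGR2), -0.94 (muc5.1), -0.71 (GALNT7), -0.13 (SPDEF), -0.03 (muc5.2) and 0.84 (muc5.3). The summed epidermal markers were higher in LRE, at 8855 to 11058 CPM in IEC and 12739 to 19290 in LRE (5 of 9 higher without overlap). Among them icn, an epidermal marker singled out after its values were seen, was lower without overlap, at 3065 ± 2297 CPM in IEC and 1023 ± 118 CPM in LRE. None of these markers was at 0 in a whole group. Fibroblast markers summed to 507 to 1300 CPM in IEC and 2379 to 3502 in LRE (4 of 6 higher without overlap). By plain totals only TP63 of the 5 higher epidermal markers and col1a1a of the 4 fibroblast markers stayed apart. Of all genes, 13% were higher and 13.8% lower without overlap after TMM scaling. Within IEC, the enteroendocrine and goblet sums were highest in IEC 1, the library with the lowest level of ENSDARG00000042141. The best4 sum was highest in IEC 2, the library with the highest level of that gene. This order was not particular to ENSDARG00000042141. Among the IEC libraries, IEC 1 was lowest for 22 of the 32 tested members (68.8%, against 43.1% of all genes). IEC 2 was highest for 18 of the 32 (56.2%, against 31.6%). The part of these cells in the MYO6 difference was not tested.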

How the data were processed

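RNA from 3 IEC and 3 LRE libraries was sequenced. Per the submitters' processing notes, the authors used HISAT2, HTSeq and GRCz10. With the strand mode not given in the sources used here, genes that overlap on opposite strands cannot be separated. Tool versions and the annotation release are likewise unstated. The authors deposited whole-number counts per Ensembl gene, not normalized. Libraries were made with a kit for very low RNA inputs, per the labels' protocols, and low counts from such inputs are noisy. Gene copies with near-identical sequence can lose or exchange reads. Symbols came from a table covering 27000 IDs. Sequences and transcript lengths were not used here, so the planned levels per length were not computed.

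Groups came from sample titles. LRE was compared with IEC by edgeR 4.0.16 in R 4.3.3, with its quasi-likelihood F test and TMM factors. The filter, filterByExpr, used a minimum count of 10 and minimum total of 15. Calls were at a Benjamini-Hochberg adjusted p under 0.05. A run on simulated counts used less spread between libraries than these data have. That run therefore does not show how the test performs here. The SE is the log2 fold change divided by the root of F. Log2 odds between paired genes used a pseudocount of 0.5. Alternatives were RLE, upper-quartile and plain totals, other filters, DESeq2 1.42.0, limma 3.58.1 voom, a replicate block, and leaving out libraries. Deviations from group means correlated at 0.217, 0.238 and 0.188 in equal-numbered pairs (-0.194 to 0.0136 otherwise, Pearson's r across genes). Deviations within a group cancel out, so these values are not independent of each other. From the data alone, the numbers were taken as a possible pairing of libraries. The main fit left the pairing out, and the replicate block used it.

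Members, gene lists and marker lists were chosen with earlier results of these data known. Given in full were both MYO6 genes, called members, members without overlap and a log2 fold change of at least 1 in size, the 8 highest in mean CPM, and the highest of each class; the rest are given by class. List genes named were the called ones (up to 3 by p) and the highest in CPM; others were picked after their values were seen. Also matched were markers of anterior enterocytes, muscle, red cells, endothelium, fibroblasts, exocrine pancreas and liver, whose summed levels were 2609, 766, 150, 8.70, 993, 3178 and 368 CPM in IEC and 2214, 1430, 236, 16.8, 2799, 2266 and 656 CPM in LRE (means). One family member and a marker gene are counted in the totals, and their own values are not reported here.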

Additional observations from a re-analysis of the deposited data

How the results depend on the processing

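The MYO6 genes kept their opposite directions under all 15 alternatives. Of all genes, 483 higher and 191 lower became 137 higher with totals alone, 1245 and 819 with DESeq2, 789 and 367 with the replicate block, 290 lower with limma voom, 251 higher without both libraries numbered 1, and 146 to 419 higher and 28 to 261 lower without 1 library. Members called higher numbered 0 with totals alone and 2 with DESeq2. Members called lower numbered 2 with upper-quartile factors, no filter, a minimum of 1 CPM in 3 libraries, limma voom and the replicate block, 4 with DESeq2, and 0 to 2 without 1 library. The members' median log2 fold change was 0.12, or -0.30 with totals alone, -0.0760 with limma voom, and -0.0485 to 0.31 without 1 library. Of the 25 microvillus genes 7 were higher with DESeq2, 5 with limma voom and 1 with totals alone, against 3. Of the 21 class V partners 3 were higher with DESeq2 or the replicate block, 2 with limma voom and 0 without any 1 library, against 1. The shares of all genes called higher were 5.93% with DESeq2, 2.89% with limma voom, 0.653% with totals alone and 3.76% with the replicate block. The cause of these moves was not tested. With the block MYO6 ENSDARG00000042141 had an adjusted p of 0.0272 and ENSDARG00000044016 one of 0.00641 (edgeR); the pairing ended no member's call. Members under about 1 CPM rest on few counts, and their differences were not detectable at this depth.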
